A study of Mus musculus with 4 samples.

Results

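T cells were a small fraction of the CD45+ cells recovered from mouse spinal cord, and they were read here across genes in uninjured tissue and after contusion injury. Cells were chosen by their own marker reads, in CPM (counts scaled to 1000000 reads of the cell). A T cell had at least 300 CPM of Cd3d, Cd3g and Trbc2 together, while the summed Cd79a and Cd79b reads stayed under 500 CPM and Csf1r under 300 CPM. The rule found 145 T cells among 1825 cells, of which uninjured cord gave 27, cord taken 7 days post-injury (dpi) gave 13 and cord taken at 60 dpi gave 105. These marker values chose the cells, so the marker levels and every comparison of these cells with the rest are descriptions.

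By their labels all animals were female Swiss Webster mice, 10 to 12 weeks old, and the sex-linked transcripts given below went against this in 1 library. Injured animals received a contusion at thoracic level T9, and uninjured animals had none. A cord segment of 3 mm was taken after the meninges were removed and without perfusion, so cells of the blood could be present, and each condition was a pool of 6 mice. The CD45+ cells, gated towards small cells of low granularity, were imaged as single live cells in the wells of an iCell8 chip and sequenced from the 3′ ends of their transcripts, which gave 1 library per condition. With 1 library per condition there is no estimate of the spread between animals, no test was run, and intervals are exact 95% intervals that cover counting error only.

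T cells recognise antigens through a receptor of alpha and beta chains, or of gamma and delta chains, held in the membrane with the CD3 proteins. The CD4 coreceptor marks helper and regulatory cells that read MHC class II, and the CD8 coreceptor marks cytotoxic cells that read MHC class I. Naive and central memory cells carry the chemokine receptor CCR7 and circulate between blood and lymph nodes, whereas effector and memory cells lose it and express integrins and inflammatory chemokine receptors that take them into tissue. The healthy cord holds few T cells, and contusion is known to bring lymphocytes into it.

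The libraries differed in ways that touch the values that follow. Reads summed over T cells came to 21529018 for uninjured cord, 12811105 for 7 dpi and 46027765 for 60 dpi, with medians of 736429, 675352 and 353305 reads per cell, and 2 T cells at 60 dpi had fewer than 50000 reads. The 7 dpi library went against its label, since Xist, the X inactivation transcript of female cells, had no read in its 13 T cells or its 441 other cells, while Y-linked genes had a read in 10 T cells and 342 other cells. In the uninjured library 18 of 27 T cells had an Xist read. None of its T cells or its 399 other cells had a Y-linked read. At 60 dpi 64 of 105 T cells had an Xist read and 9 a Y-linked read, 5 of them both. Of the 840 other cells at 60 dpi 479 had an Xist read and 130 a Y-linked read, 83 of them both. Well barcodes shared between libraries numbered 43, 82 and 102 for the 3 pairs, and 1 of these was a T cell in both libraries of its pair. Values at 7 dpi are therefore given beside the others, and the count of genes that rests on all 3 libraries is also given without that one.

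The cells that met the rule were not uniform. A T cell receptor beta chain (Trbc1 or Trbc2) and a CD3 chain were each at 50 CPM or more in 89 of the 145, which were 16 of 27 uninjured, 4 of 13 at 7 dpi and 69 of 105 at 60 dpi. Of the 145, 8 (1 uninjured, 2 at 7 dpi, 5 at 60 dpi) were rich in granulocyte transcripts (S100a8, S100a9, Camp, Ngp and Ltf summed). They held 46757 to 340171 CPM, against at most 16157 CPM in the other T cells. All 8 had Cd3d at 100 CPM or more, but only 1, which is among the 89, had a beta chain at that level. These 8 cells held 34.1% of the T cell reads at 7 dpi. Natural killer receptor genes (Ncr1, Klrb1c and Klre1 summed) reached 50 CPM in none of the uninjured cells, 3 at 7 dpi and 12 at 60 dpi, and CD3 was under 50 CPM in 3 and 5 of those.

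T cells made up 6.34% of uninjured cells (interval 4.22 to 9.09%), 2.86% of cells at 7 dpi (1.53 to 4.85%) and 11.1% at 60 dpi (9.18 to 13.3%). The 60 dpi share was the highest, and its interval lay apart from that of 7 dpi but only just from that of uninjured cord. Under 8 of 10 other marker limits and filters the 60 dpi and uninjured intervals overlapped, and the 60 dpi and 7 dpi intervals overlapped under none. When a CD3 chain and a beta chain were both required at 50 CPM, the shares were 3.76%, 0.881% and 7.30%, in the same order. At least 300 CPM of T cell markers was found in 33, 21 and 184 cells, and of the 184 at 60 dpi 55 were set aside for B cell markers alone, 16 for Csf1r alone and 8 for both, against 0, 6 and 0 of the 33 uninjured cells. Whether those wells held a T cell was not tested. The members closest to the T cell marker minimum had 308 and 318 CPM, and the closest cells outside it had 290 and 274 CPM. The B cell limit separated 499 from 503 CPM and the Csf1r limit 297 from 338 CPM.

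**Figure D1:**
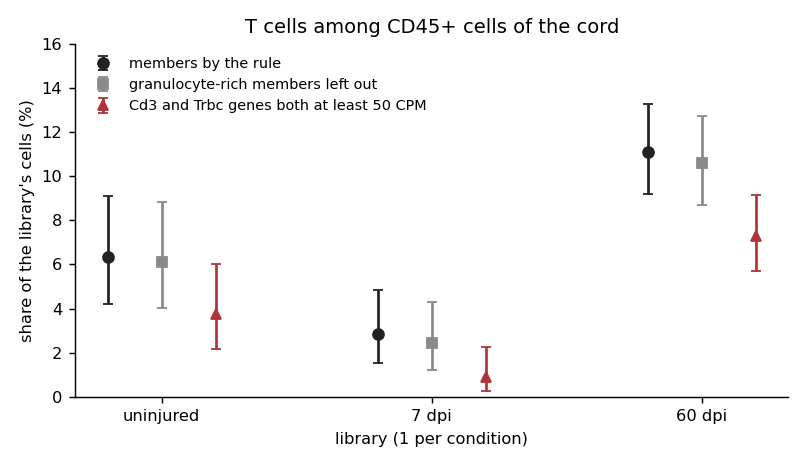
Share of each library's cells (percent, vertical axis) that met the T cell rule, by library, with exact 95% intervals, for the rule as given and for stricter marker rules. The 60 dpi share is the highest under each, at 11.1% by the rule as given against 6.34% in uninjured cord and 2.86% at 7 dpi.

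The sum of Cd3d, Cd3g and Trbc2 reads used by the rule had a median of 2289 CPM in uninjured T cells, 2020 at 7 dpi and 2231 at 60 dpi, but at least 2 of the 3 markers were read in 22 of 27, 4 of 13 and 81 of 105 cells. Trbc2 (GRCm38 chr6:41546730-41548352, plus strand), a constant region of the beta chain, stood at 1926, 952 and 1250 CPM, and its near-identical neighbour Trbc1 at 599, 683 and 752 CPM. Reads of this pair may be divided between them in a way that cannot be told from the counts. Trac, the constant region of the alpha chain and no part of the rule, stood at 237, 254 and 208 CPM in T cells against 1.5 CPM in the other uninjured cells and 15.5 CPM in the other cells at 60 dpi. Trac was thus read in T cells of each library, and it reached 100 CPM in 10, 4 and 22 single cells. Cd3e was low, at 32.3, 0.234 and 12.4 CPM.

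Against all other cells of the same library, 54 of 2356 genes compared (2.29%) were at least 2-fold higher in T cells in every library and 135 (5.73%) were at least 2-fold lower. Compared genes reached 50 CPM and had a read in 25% of cells when every cell was thinned to 50000 reads. The highest were Kbtbd11, Trbc2, Cd3d, Trac and Trbc1, of which Trbc2 and Cd3d chose the cells. Kbtbd11 had a read in 1 of the 13 cells at 7 dpi, and it was not called with the highest cell left out or with a CD3 and a beta chain both required. Genes of receptor signalling followed. Lat, the scaffold on which the receptor signal is assembled, was higher by 5.40 on the log2 scale in uninjured cord, 4.06 at 7 dpi and 3.15 at 60 dpi, and Lck, the kinase bound to the coreceptors, by 4.08, 3.73 and 2.21. Of the 6 receptor complex genes compared 3 chose the cells, and of these Cd3g did not reach 2-fold in every library. The other 3 (Trac, Trbc1 and Cd247) were higher, but Cd247 was not called with the highest cell left out. Of the signalling genes 4 of 7 were higher (Lck, Lat, Skap1 and Cd2). Ms4a4b, a membrane protein of T cells, and Tnfrsf18, a costimulatory receptor also known as GITR, were higher by 2.46 and 2.41 at 60 dpi.

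**Figure D2:**
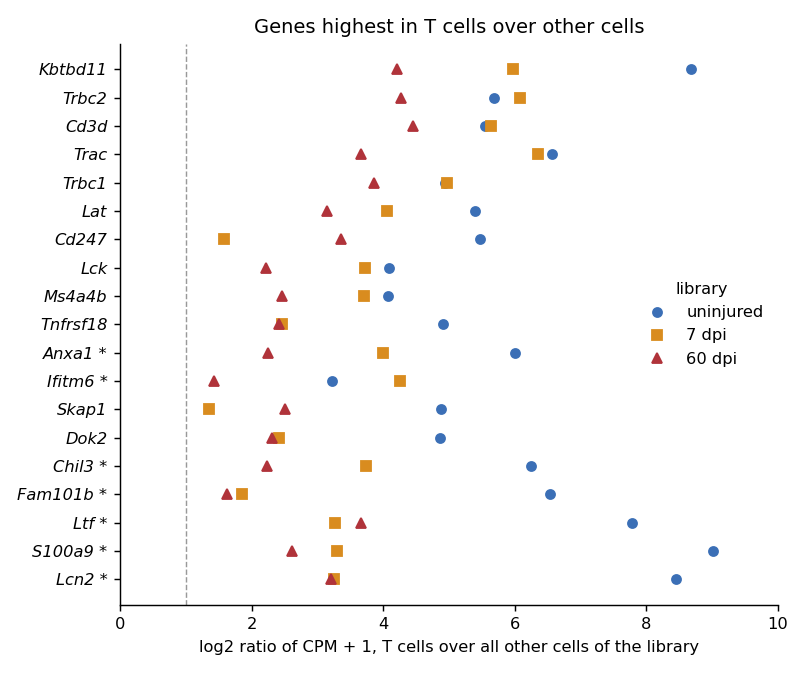
Genes highest in T cells over all other cells, as the log2 ratio of CPM + 1 within each library (points, 1 per library), with a dashed line at 2-fold. Receptor and signalling genes are among the highest, and the genes marked with an asterisk, granulocyte genes among them, were no longer called once the 8 granulocyte-rich cells were left out.

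The highest genes also included S100a9, Lcn2, Ltf, Chil3, Anxa1 and Ifitm6, which are genes of neutrophils and other myeloid cells. S100a9 stood at 1883 CPM in uninjured T cells, and 99.9% of those reads lay in 1 cell. Without the 8 granulocyte-rich cells 46 genes were called higher, 28 of them among the 54, and S100a9, Lcn2 and Ltf were not called. With the uninjured and 60 dpi libraries alone, 52 genes were called higher, 39 of them among the 54. Overlaps were smaller under stricter choices of cells, with 17 of the 54 still called when a CD3 and a beta chain were both required, 18 with reads of 2 of the 3 markers and 20 without cells holding a Y-linked read. When, for each gene, the T cell with the most reads was left out, 14 genes were still called, and Trbc2, Trbc1, Cd3d, Trac, Lat, Lck, Cd2, Ms4a4b, Tnfrsf18 and Dok2 were among them.

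Among genes of T cell states, few stood above the other CD45+ cells in every library. Of the naive and central memory genes 1 of 8 compared was higher (Bcl2, an inhibitor of cell death), and of the effector and memory genes 4 of 12 (Il2rb, Ly6c2, S100a6 and S100a11). Without the granulocyte-rich cells Ly6c2, S100a6 and S100a11 were not called, and without the highest cell of each gene Bcl2, Il2rb, S100a6 and S100a11 were not. Ccl5, a chemokine of effector lymphocytes, and Nkg7, a protein of cytotoxic granules, were also higher in every library, but neither was called once the highest cell of each gene was left out. Without the cells at 50 CPM or more of NK receptor genes, Ccl5, Nkg7, Il2rb and Bcl2 were not called either. None of the 10 homing genes compared was higher, and Cx3cr1, a chemokine receptor that microglia express strongly, was lower. All 13 B cell markers compared and 8 of 13 microglial markers were lower in T cells, directions that the limits on Cd79a, Cd79b and Csf1r favour.

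Coreceptor reads were sparse, and most T cells had none. Cd4 (chr6:124864692-124888221, minus strand) stood at 59.8, 0.937 and 29.0 CPM in uninjured, 7 dpi and 60 dpi T cells. Cd8b1 (chr6:71322788-71337494, plus strand) stood at 155, 252 and 204 CPM, and Cd8a (chr6:71373427-71379173, plus strand) at 28.6, 263 and 108 CPM. At 50000 reads per cell, 3 of 27 uninjured T cells (11.1%, interval 2.4 to 29.2%) had a read of Cd4 alone, and 3 of 27 had a read of Cd8a or Cd8b1 alone. At 60 dpi 10 of 103 (9.71%, 4.75 to 17.1%) had Cd4 alone, 21 (20.4%, 13.1 to 29.5%) had Cd8a or Cd8b1 alone, 1 had both and 71 (68.9%) had neither. At 7 dpi the counts were 1 and 2 of 13. The intervals of the Cd8 share overlapped between uninjured and 60 dpi cord, also at full depth (2.4 to 29.2% and 17.7 to 35.2%). With 27 uninjured T cells and 1 library per condition, these counts do not settle whether CD4 or CD8 type changed. At full depth in the 105 cells of 60 dpi the counts were 13, 27, 2 and 63. As background, cells of the 60 dpi library that carried B cell markers, with T cell markers under 50 CPM and Csf1r under the rule's limit, had Cd4 alone in 3 of 399 (0.752%) and Cd8 alone in 16 of 399 (4.01%).

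**Figure D3:**
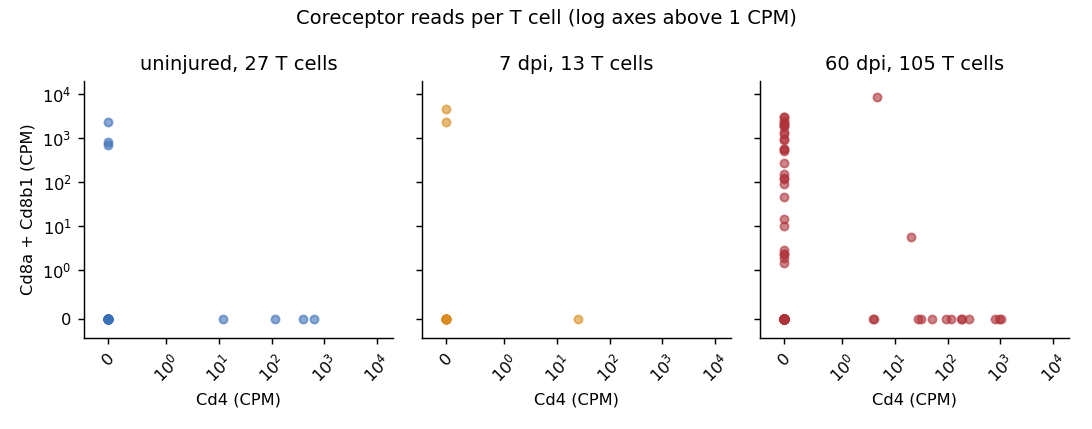
Cd4 (horizontal axis, CPM) against Cd8a plus Cd8b1 (vertical axis, CPM) in each T cell of the uninjured, 7 dpi and 60 dpi libraries, on axes that are logarithmic above 1 CPM. Cells with reads lie along either axis, only 2 cells at 60 dpi hold reads of both coreceptors, and most cells lie at the origin.

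The 26 T cells with Cd8 reads alone were set beside the 14 with Cd4 reads alone, pooled over libraries because of their number (21 and 10 of them from 60 dpi). Of 1966 genes compared, 427 (21.7%) were at least 2-fold higher in the Cd8 cells and 385 (19.6%) were at least 2-fold lower, so a 2-fold difference was common between groups of this size. Of the cytotoxic genes 4 of 5 compared were higher in the Cd8 cells. These were Nkg7 (1283 against 70.4 CPM), Klrd1 (322 against 1.6 CPM), which encodes the NK receptor subunit CD94, Klrk1 and Cst7. Ccl5 stood at 7330 CPM in the Cd8 cells and 272 CPM in the Cd4 cells. At 60 dpi alone the corresponding values were 10097 and 512 CPM for Ccl5, 1417 and 135 CPM for Nkg7 and 400 and 3.17 CPM for Klrd1, in the same direction.

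Over the pooled libraries 5 of 11 homing genes were higher in the Cd8 cells and none was lower, against 21.7% and 19.6% of all genes. The 5 were Ccr7, Cxcr3, Cxcr6, Itga4 and Itgb7. At 60 dpi alone Cxcr3, Cxcr6, Itga4, Itgb7 and Selplg were at least 2-fold higher in the Cd8 cells. S1pr1 (52.9 against 170 CPM) and Itgb2 (58.5 against 144 CPM) were at least 2-fold lower there, so the absence of lower genes depended on pooling. Ccr7, the receptor for lymph node homing, stood at 391 CPM in the Cd8 cells and 89.5 CPM in the Cd4 cells. At 60 dpi alone it stood at 266 and 169 CPM, under 2-fold. The share of cells with a Ccr7 read went the other way there, with 6 of 21 Cd8 and 5 of 10 Cd4 cells. A single cell held 64.9% of the Ccr7 reads of those Cd8 cells. Satb1, a chromatin organiser in the naive list, was also higher in the Cd8 cells, at 153 against 47.5 CPM. At 60 dpi it was read in 6 of 21 Cd8 and 4 of 10 Cd4 cells, and 1 cell held 57.8% of the Cd8 reads. Cxcr6, a chemokine receptor of tissue T cells, had reads in 10 of 26 Cd8 cells and no read in the 14 Cd4 cells, at 325 against 0 CPM. The integrin gene Itga4, whose product pairs into VLA-4, stood at 132 against 12.1 CPM. Tnfrsf18 went the other way, at 137 CPM in the Cd8 cells and 364 CPM in the Cd4 cells, but at 196 and 296 CPM it was under 2-fold at 60 dpi alone. Cd40lg, which helper cells use to stimulate B cells, had no read in the Cd8 cells and 12.9 CPM in the Cd4 cells, all in 1 cell. Lgals1 was alike in summed level, at 1348 and 1070.5 CPM. At 60 dpi, however, 1 cell held 76.6% of the Lgals1 reads of the Cd8 cells, against 34.1% in the Cd4 cells. Lgals1 was read there in 16 of 21 Cd8 and 10 of 10 Cd4 cells.

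Between 60 dpi and uninjured T cells, 377 of 1743 genes compared (21.6%) were at least 2-fold higher at 60 dpi and 154 (8.84%) were at least 2-fold lower. The median log2 ratio over all genes compared was 0.07 in T cells and 0.75 in all other cells of the same libraries. The make-up of those other cells differed between the libraries. Cells at or over the Csf1r limit with few T and B cell markers made up 64.1% of uninjured and 8.68% of 60 dpi cells. Cells with B cell markers made up 5.16% and 43.3%. The part of this difference in the ratios of the other cells was not tested. Of the 377 higher genes 153 were also at least 2-fold higher in the other cells, and of the 154 lower genes 37 were also lower there. Of the 154, 40 had over 50% of their uninjured reads in 1 cell, so these values rest on few of the 27 cells.

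Genes of naive and central memory T cells were lower at 60 dpi in 3 of 8 compared (Ccr7, Lef1 and Klf2) and higher in 1 (Foxp1), with a median log2 ratio of -0.72 against 0.07 over all genes, of which 8.84% were lower and 21.6% higher. Ccr7 (chr11:99144196-99155077), the receptor that guides lymphocytes to lymph nodes, stood at 686 CPM in uninjured T cells (675 to 697), 0.0781 at 7 dpi and 143 at 60 dpi (139 to 146). Per cell Ccr7 ran from 0 to 3100 CPM with a median of 7.14 in uninjured cord, and from 0 to 4450 CPM with a median of 0 at 60 dpi. It reached 100 CPM in 11 of 27 uninjured T cells (40.7%, 22.4 to 61.2%), in none of 13 at 7 dpi and in 21 of 105 at 60 dpi (20%, 12.8 to 28.9%). Single cells of the 2 libraries overlapped in range, and the intervals of these shares overlapped.

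Lef1 (chr3:131110471-131224356), a transcription factor of naive T cells, was at 614 CPM in uninjured T cells, 10.1 at 7 dpi and 140 at 60 dpi. It reached 100 CPM in 14 of 27 uninjured cells (51.9%, 32.0 to 71.3%), 1 of 13 at 7 dpi and 12 of 105 at 60 dpi (11.4%, 6.05 to 19.1%), and these intervals did not overlap between uninjured and 60 dpi. In the other cells of the libraries Ccr7 and Lef1 went the other way, by 1.88 and 3.6 on the log2 scale. At 60 dpi B cell-marked cells reached 100 CPM of Ccr7 in 20.3% and of Lef1 in 11.5%, close to the T cell shares of that library. In uninjured cord they reached it for Ccr7 in 9 of 22 (40.9%) and for Lef1 in 0 of 22. The lower Ccr7 share at 60 dpi was thus also seen in B cell-marked cells, and that of Lef1 was not.

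Klf2, a factor of quiescence that drives S1pr1, stood at 688 CPM in uninjured T cells and 111 CPM at 60 dpi, but it was lower at 60 dpi in the other cells as well (1181 and 224 CPM). S1pr1, the receptor for exit from lymph nodes, stood at 166 and 93.1 CPM and did not reach 2-fold. Il7r, the receptor for the survival cytokine IL-7, was close to level at 250, 219 and 203 CPM. Tcf7 stood at 48.4, 63.1 and 52.3 CPM and was not compared. It fell short of the level in uninjured T cells and of the share of cells at 60 dpi. The naive and central memory genes therefore did not move as a block.

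Of the effector and memory genes 11 of 12 compared were at least 2-fold higher at 60 dpi and none was lower, against 21.6% higher and 8.84% lower over all genes, with a median log2 ratio of 1.76. In the other cells the same 12 genes had a median of 2.74, so the direction was shared with them. Lgals1 (chr15:78926725-78930465), which encodes the carbohydrate-binding protein galectin-1, stood at 76.4, 540 and 1493 CPM. It reached 100 CPM in 2 of 27 uninjured T cells, 5 of 13 at 7 dpi and 59 of 105 at 60 dpi (56.2%), and also in 38.6% of B cell-marked cells at 60 dpi. Crip1 stood at 310 and 819 CPM, Vim, the intermediate filament vimentin, at 107 and 356 CPM, and Ahnak at 59.0 and 292 CPM in uninjured and 60 dpi T cells. The S100 genes S100a6, S100a10 and S100a11 were higher by 1.6, 1.80 and 1.70 on the log2 scale.

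Id2 and Bhlhe40, transcriptional regulators of effector and tissue T cells, were also higher. Id2 stood at 179 CPM in uninjured T cells and 488 CPM at 60 dpi, a log2 ratio of 1.45, whereas in the other cells it stood at 1469 and 393 CPM, a log2 ratio of -1.90. Bhlhe40 had no read in the 27 uninjured T cells and was in 33 of 103 at 60 dpi at 90.3 CPM, which was at least 648-fold higher against a floor of 3 reads over the uninjured T cells. Il2rb, the beta chain of the receptors for IL-2 and IL-15, stood at 10.2, 12.6 and 53.3 CPM with reads in 1 of 27, 2 of 13 and 31 of 103 cells. Cd44, an adhesion receptor of antigen-experienced cells, had reads in 1 of 27 and 22 of 103 cells at 2.09 and 110 CPM and fell short of the share of cells for comparison.

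**Figure D4:**
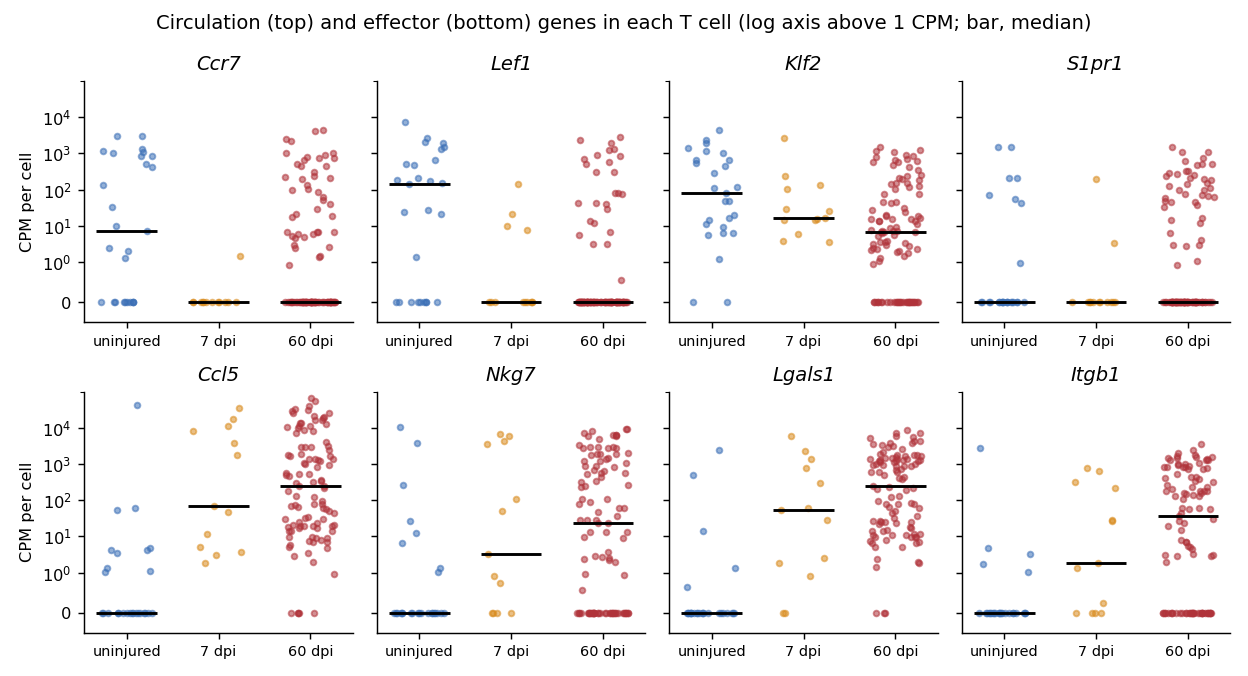
Level of 4 circulation genes (top) and 4 effector genes (bottom) in each T cell (points, CPM, logarithmic above 1 CPM) by library, with bars at the medians. Ccr7, Lef1 and Klf2 have their higher medians in uninjured cells, Ccl5, Nkg7, Lgals1 and Itgb1 have theirs at 60 dpi, and 1 uninjured cell stands high in Ccl5.

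Of 9 homing genes compared 1 was higher at 60 dpi and 2 were lower, against 21.6% and 8.84% of all genes. Itgb1 (chr8:128685654-128733200), the beta 1 integrin chain shared by many receptors for matrix and vessel wall, was the higher one, at 53.7 CPM in uninjured T cells, 139 at 7 dpi and 342 at 60 dpi. A single cell held 99.3% of the uninjured Itgb1 reads. It reached 100 CPM in 1 of 27 uninjured T cells (3.70%), 4 of 13 at 7 dpi and 47 of 105 at 60 dpi (44.8%, 35.0 to 54.8%). The other cells stood at 137 and 131 CPM, and 9.29% of B cell-marked cells at 60 dpi reached 100 CPM. Itgb1 was thus higher at 60 dpi in T cells and level in the other cells.

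The integrin chains Itga4, Itgb2 and Itgb7 were within 2-fold, at 102 and 138, 130 and 98.4, and 124 and 98.8 CPM in uninjured and 60 dpi T cells. Ccr7 and Gpr183, a receptor for oxysterols that positions lymphocytes in lymphoid tissue, were the 2 lower. Gpr183 stood at 275 and 45 CPM in T cells and at 258 and 48.9 CPM in the other cells.

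Of the inflammatory chemokine receptors, Cxcr6 (chr9:123806475-123811760) stood at 28.5, 58.5 and 192 CPM and Cxcr3 (chrX:101731535-101734269) at 3.16, 102 and 69.4 CPM. Each was above 100 CPM in 1 of 27 uninjured T cells and in 1 of 13 at 7 dpi. At 60 dpi Cxcr6 reached that level in 21 of 105 (20%) and Cxcr3 in 17 of 105 (16.2%). Both fell short of the share of cells for comparison, so no call was made. B cell-marked cells of the same library reached 100 CPM of Cxcr6 in 0.978% and of Cxcr3 in none of 409. Ccr2 had no read in uninjured T cells, and the counts of cells with a read were 2 of 13 at 7 dpi and 16 of 103 at 60 dpi. Ccr8 and Ccr10 had no read in any T cell.

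Ccl5 (chr11:83525778-83530518), Nkg7 and Gzma were among the effector products read. Ccl5 stood at 1180 CPM in uninjured T cells, 4467 at 7 dpi and 4630 at 60 dpi. Per cell it ran from 0 to 42449 CPM with a median of 0 in uninjured cord and from 0 to 69245 CPM with a median of 241 at 60 dpi. A single uninjured cell held 99.7% of the uninjured Ccl5 reads, and with the highest cell of each library left out the log2 ratio of Ccl5 was 9.71 in place of 1.97. That uninjured cell also held 10282 CPM of Nkg7 and 2412 CPM of Lgals1 and had no read of Ccr7, Lef1, Cd4, Cd8a or Cd8b1. Ccl5 reached 100 CPM in 1 of 27 uninjured T cells, 6 of 13 at 7 dpi and 57 of 105 at 60 dpi (54.3%), but also in 35.7% of B cell-marked cells and 39.0% of Csf1r-marked cells at 60 dpi, the latter being cells at or over the Csf1r limit with few T and B cell markers.

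Nkg7 (chr7:43437073-43438249) stood at 386, 1467 and 905 CPM, a log2 ratio of 1.23 between 60 dpi and uninjured T cells. Without the cells holding NK receptor genes this ratio was 0.97, under 2-fold. Nkg7 reached 100 CPM in 3 of 27, 5 of 13 and 43 of 105 T cells (41.0%, 31.5 to 51.0%), against 11% of B cell-marked and 12.2% of Csf1r-marked cells at 60 dpi. Gzma, a protease of cytotoxic granules, stood at 1.3, 2436 and 375 CPM with reads in 3 of 27, 4 of 13 and 27 of 103 cells. At 60 dpi the other cells held Gzma at a like level, 374 CPM. Gzmb had no read in uninjured T cells and stood at 27.9 CPM in 10 of 103 cells at 60 dpi.

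Transcripts of Ifng and of the interleukins named here were few. Ifng had no read in uninjured T cells, and reads in 1 of 13 at 7 dpi and 5 of 103 at 60 dpi. Il17a stood at 74.8 CPM at 60 dpi with 99.9% of its reads in 1 cell. Il4, Il5, Il13, Il17f and Il22 had no read in any of the 145 T cells, which allows a share of up to 2.07% of cells with a read. Of the 5 cytokine genes compared Ccl5 and Mif, the macrophage migration inhibitory factor, were higher at 60 dpi, against 21.6% of all genes. Tnfsf8, the ligand of CD30, was lower, and the chemokine gene Ccl4 was within 2-fold, at a log2 ratio of 0.94.

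Reads of circulation and of effector genes were also counted cell by cell. At 50000 reads per cell, a read of Ccr7 or Lef1 was found in 20 of 27 uninjured T cells (74.1%, 53.7 to 88.9%), 3 of 13 at 7 dpi and 42 of 103 at 60 dpi (40.8%, 31.2 to 50.9%). A read of Cxcr3, Cxcr6, Il2rb or Itgb1 was found in 3 of 27 uninjured cells (11.1%, 2.4 to 29.2%), 7 of 13 at 7 dpi and 76 of 103 at 60 dpi (73.8%, 64.2 to 82.0%). Cells with reads of both sets numbered 1 of 27 and 30 of 103 (29.1%), and cells with the second set alone 2 of 27 and 46 of 103 (44.7%). In Csf1r-marked cells the second set was read in 31.0% of uninjured and 34.6% of 60 dpi cells, and in B cell-marked cells in 2 of 21 (9.52%) and 24.8%. The first set was read in 12 of 21 uninjured B cell-marked cells (57.1%), and at 60 dpi in 47.9% of B cell-marked cells and 41.8% of all other cells, so at 60 dpi it did not set T cells apart. With a CD3 chain and a beta chain both required, the first set was read in 15 of 16 uninjured and 29 of 68 T cells at 60 dpi, and the second in 1 of 16 and 51 of 68. These 6 genes were picked after their values were seen, and the counts describe these 2 libraries.

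At 60 dpi 40 of 105 T cells (38.1%) held Ccl5 at 1000 CPM or more. The level was set after seeing the values, it cuts a continuous range, and 16 cells lay within 2-fold of it. The 40 cells had a median of 366626 reads and the other 65 a median of 347960, and none of the 40 was granulocyte-rich. Nkg7 stood at 2241 CPM in the 40 and 137 CPM in the 63 others that had 50000 reads, and Gzma at 974 and 29.9 CPM. Cd8b1 stood at 382 and 99.2 CPM and Cd4 at 4.58 and 42.6 CPM. S1pr1 and Ccr7 were the lower in the Ccl5-high cells, at 17.7 and 137 CPM and at 60.2 and 185 CPM. Lgals1 was the lower as well, at 865 against 1858 CPM. NK receptor genes reached 50 CPM in 7 of the 40 and 5 of the 65, and their part in the difference was not tested.

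Of the 6 receptor complex genes compared, 3 of which chose the cells, none reached 2-fold between 60 dpi and uninjured T cells, while Cd3e, too low to be compared, stood at 12.4 against 32.3 CPM, and of the 7 signalling genes 1 did (Cd6, an adhesion receptor, at 154 and 67.6 CPM). Cd69, an early activation antigen that also holds T cells in tissue, stood at 817, 177 and 595 CPM and reached 100 CPM in 11 of 27, 3 of 13 and 52 of 105 cells. Of 16 early response genes compared, Nr4a2 was higher at 60 dpi and Fos was lower, shares under those of all genes, and Fos was lower in the other cells as well. Of 7 cytokine receptor genes, Il2rb and Ifnar1 were higher and Tgfbr1 and Tgfbr2, the receptor chains for TGF-beta, were lower, against 21.6% and 8.84% of all genes. Tgfbr2 stood at 150, 163 and 24.1 CPM.

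Regulatory T cell genes were scattered. Foxp3, the factor that defines these cells, had no read in uninjured or 7 dpi T cells and 0.0435 CPM at 60 dpi. Ctla4, an inhibitory receptor of regulatory and activated T cells, reached 100 CPM in 1 of 27, 1 of 13 and 13 of 105 T cells (12.4%), against 0.244% of B cell-marked cells at 60 dpi. Tnfrsf4, which encodes the costimulatory receptor OX40, had no read in uninjured or 7 dpi T cells and was read in 11 of 103 cells at 60 dpi, at 170 CPM, and Ikzf2 in 13 of 103 at 89.3 CPM. Tnfrsf18 was within 2-fold, at 144, 60.3 and 181 CPM.

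**Figure D5:**
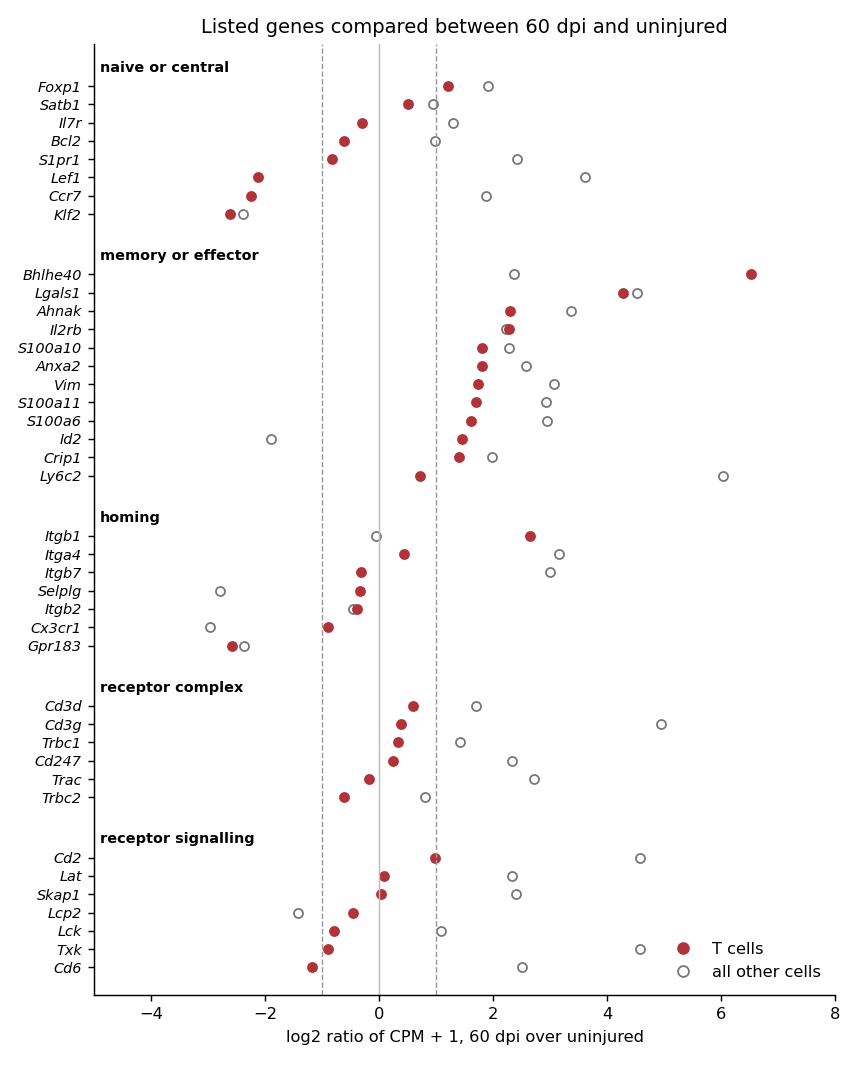
Log2 ratio of CPM + 1 between 60 dpi and uninjured cord (horizontal axis) in T cells (filled points) and in all other cells (open points), for the compared genes of 5 lists, with dashed lines at 2-fold. Ccr7 and Lef1 lie to the left in T cells alone, Itgb1 and Id2 to the right in T cells alone, and the point of Bhlhe40, which had no read in uninjured T cells, depends on the 1 CPM added.

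Transcripts of other cell types were present in T cells and moved with the libraries. The B cell marker list summed to 604 CPM in uninjured T cells, 599 at 7 dpi and 3391 at 60 dpi, and to 3417, 3954 and 14186 CPM in the other cells, and 7 of 8 of its genes compared were higher in T cells at 60 dpi. Per cell this sum ran from 3.63 to 5659 CPM in uninjured T cells and from 209 to 29082 CPM at 60 dpi, so no T cell at 60 dpi was free of it. Ly6d, a B cell surface protein, stood at 0.697 and 339 CPM and Vpreb3, of the early B cell receptor, at 0.186 and 208 CPM in uninjured and 60 dpi T cells. The myelin list summed to 109, 33.6 and 1660 CPM in T cells and to 251, 159 and 1698 CPM in the other cells, so at 60 dpi the levels were alike. Spp1, the phagocyte and matrix protein osteopontin, stood at 14.8 and 2070 CPM in T cells and at 44.2 and 2361 CPM in the others. The 5 summed granulocyte genes, outside the 8 rich cells, had medians of 5.34, 5235 and 861 CPM in T cells. The microglial list was lower in T cells than in the other cells of each library, at 3783 against 33959 CPM in uninjured cord and 2941 against 6032 CPM at 60 dpi. The part of these transcripts in the T cell values was not tested.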

How the data were processed

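Per the study's methods, the authors aligned the reads with STAR to mm10, and the table deposited for the series holds raw counts of reads per gene and cell (39066 genes, 1825 cells), not molecules. The counting annotation and its strand setting are not given in the sources used here. No doublet caller was run, since the authors selected wells by imaging, and all cells of the table were kept. Cells at 3 dpi were not analysed here.

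Members and gene lists were chosen with earlier results of these data known. Counts were summed over T cells of a library and scaled to CPM over all their reads, so cells with more reads weigh more. Exact 95% intervals (Poisson for CPM, Clopper-Pearson for shares) cover counting error only. Ratios are log2 of CPM + 1, a call is 2-fold or more, and a gene was compared at 50 CPM with a read in 25% of cells thinned to 50000 reads. Against other cells a call needed all 3 libraries. A group without reads was set at a floor of 3 reads.

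Named genes came from 32 fixed lists (342 of 349 symbols found in the table), from the 20 genes highest over other cells, and from the 12 highest and 12 lowest between 60 dpi and uninjured. Some genes are not reported here. Any other choice is stated beside its values. Gene positions are those of GENCODE vM21 on GRCm38. No test was run with 1 library per condition. The alternatives moved the marker limits, cell filter, gene filter, pseudocount, scaling, thinning and weighting, and left out subsets of members. Those on granulocyte-rich cells, on a joint CD3 and beta chain minimum and on Y-linked reads were added after seeing the data. The scripts, run in Python 3.11.15 with numpy 2.4.6, pandas 2.3.3 and scipy 1.17.1, were tested on simulated counts first.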

Additional observations from a re-analysis of the deposited data

How the results depend on the processing

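No paired analysis was possible because each condition is 1 library and no cell of one is matched to a cell of another. The order of the T cell shares (60 dpi, uninjured, 7 dpi) held under every marker limit and filter tried, although the 60 dpi and uninjured intervals overlapped under 8 of 10, and the CD4 and CD8 shares stayed within their intervals. With a CD3 and a beta chain both at 50 CPM the shares were 3.76, 0.881 and 7.30% in uninjured, 7 dpi and 60 dpi cord, with 2 of the 3 markers read they were 0.881% at 7 dpi and 8.57% at 60 dpi, and without T cells holding a Y-linked read the 7 dpi share was 0.661%. Genes higher in T cells than in other cells numbered 54, and 14 with the highest cell of each gene left out, 119 with a filter of 10 CPM and 10% of cells and 130 with no filter. Genes lower numbered 135, and 343, 445 and 1958 in the same order, so the higher genes were 28.6% of calls as reported and 3.92, 21.1 and 6.23% under these settings (16.2% with the joint chain minimum). Between 60 dpi and uninjured T cells, higher genes numbered 377, and 588, 1653 and 6240 in the same order. Lower genes numbered 154, and 80, 739 and 1905, and 290 with the joint chain minimum. Leaving out the highest cell of each gene moved the median log2 ratio of all genes from 0.07 to 0.45 and the higher share of calls from 71.0 to 88.0%, and the log2 ratio of Cd3e, a gene below the comparison level, went from -1.31 to 0.094. For 69 genes between 60 dpi and uninjured, 1038 of 1104 values kept the call or its absence, 34 lost the call and 31 gained it. Among genes past 2-fold as reported, only Cd3e changed direction, in 1 value. Genes under 2-fold were not scored for direction, and some changed it, such as Il7r (-0.30 as reported, up to 0.22). For 30 genes against other cells 427 of 510 values kept the call and 83 lost it. The looser filters test more genes by construction, and the cause of the other moves was not tested. The 27 uninjured T cells and 13 at 7 dpi, from 1 pool each, limit these values more widely than the counting intervals show.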

Other observations

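Interferon-stimulated genes were compared for 2 members of the list, and Ifi27l2a was higher in T cells at 60 dpi. Ifi27l2a stood at 6.36, 231 and 492 CPM in T cells and at 47.5 and 515 CPM in the other cells of the uninjured and 60 dpi libraries. Isg20 had no read in uninjured or 7 dpi T cells and was read in 13 of 103 at 60 dpi. Of 6 MHC class I genes compared, H2-Q7 (170 and 402 CPM) and H2-T23 (27.3 and 134 CPM) were higher at 60 dpi, and H2-K1 was level at 1089 and 1194 CPM.

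Genes of cycling cells were read at 60 dpi. Mki67, a marker of dividing cells, had no read in uninjured T cells and was read in 14 of 103 at 60 dpi, and Stmn1 in none and in 18 of 103, while the other cells of the 60 dpi library held both at higher levels (87.0 and 119.5 CPM against 23.2 and 31.5 CPM in T cells). Gamma chain constant genes had no read in uninjured or 7 dpi T cells. At 60 dpi Tcrg-C1, Tcrg-C2 and Tcrg-C4 were read in 3, 8 and 9 of 103 cells, and their near-identical sequences leave the split between them uncertain.

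Among the genes with the highest and lowest ratios between 60 dpi and uninjured T cells, a few moved apart from the other cells. Higd1a, a mitochondrial protein induced by low oxygen, stood at 0.325, 130 and 123 CPM in T cells and at 66.1 and 83.6 CPM in the other uninjured and 60 dpi cells. Ssbp1, which binds single-stranded mitochondrial DNA, had 3 reads in uninjured T cells and 160 CPM at 60 dpi, in 31 of 103 cells, against 127 and 95.9 CPM in the other cells. Xlr4b, a gene of the X chromosome, stood at 161, 0.546 and 16.7 CPM in T cells and at 7.20 and 22.1 CPM in the other cells. Pole4, a subunit of DNA polymerase epsilon, stood at 383, 229 and 53.1 CPM in T cells and at 83.6 CPM in the other cells of both libraries. These 4 were picked from the ranked genes after their values were seen. Adamts1, Hspa1b, Gpr34 and Marcks, also among the lowest, were lower at 60 dpi in the other cells too, with log2 ratios of -3.05, -3.86, -3.67 and -1.97.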
